A study of Mus musculus with 16 samples.

Results

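The genes described here encode 9 proteins of focal adhesions, the sites where integrins couple the extracellular matrix to actin filaments. They were taken by symbol as a fixed list (Ptk2, Pxn, Bcar1, Zyx, Actn1, Flna, Tns1, Tns3 and Kank2), and all 9 were found among the 24982 entries of the deposited count table. All 9 also passed the filter on low counts, which left 13775 genes. Each of 16 C57BL/6 mice gave 1 library, made from left ventricular RNA. The knockout group was labelled Tln2-null with a Tln1 knockout specific to cardiac fibroblasts (CF), and the comparison group was labelled Tln2-null alone, with 8 mice in each group, 4 males and 4 females. The knockout mice and the Tln2-null mice alike carried the Tln2-null label, received tamoxifen by injection for 5 days and, after 2 weeks, angiotensin II (AngII, a hormone that raises blood pressure) from a pump for 8 weeks. No untreated and no Tln2 wild-type ventricles were among the samples, and the sources used here name neither the promoter that drives the recombinase, nor the deleted exons, nor the age of the mice.

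Talin, the product of Tln1 and Tln2, binds the tails of integrins and links them to actin, and the proteins of this list join the assembly around it. Focal adhesion kinase and the scaffolds paxillin and p130Cas turn adhesion into signals. Zyxin, alpha-actinin and filamin tie or bundle actin filaments, tensins hold integrins to actin in mature adhesions, and KANK proteins bind talin and join adhesions to the microtubule cortex. In the heart these genes are used by fibroblasts, vessel cells and muscle cells, so a level in whole ventricle sums over cell types. Fewer cells of a type and less RNA per cell cannot be told apart in such samples.

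Library totals ran from 11161766 to 19221673 counts, both extremes in the knockout group. As a check of tissue, the 14 cardiomyocyte markers summed to 66620 to 79730 CPM (read counts relative to the scaled library total) in knockout and 69390 to 74560 CPM in Tln2-null ventricles. Of 6 atrial markers, 3 passed the filter. Tln1 measured 273.6 ± 31.3 CPM in knockout and 289.0 ± 20.7 CPM in Tln2-null mice (SD, n = 8 each), a level over the whole gene in whole tissue that checks little of a deletion in 1 cell type. Some libraries stood apart before any result: knockout replicate 8 and Tln2-null replicate 8 by their clock genes, Tln2-null replicate 5 by its heat shock genes, and 4 females (knockout replicates 3, 5 and 7 and Tln2-null replicate 4) by reads of Y-linked genes at 1.11 to 2.88 percent of the mean in males. The results were also computed without them.

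Promoter sequences from the RefSeq table (build GRCm38.p6) are shown for Actn1, Flna and Zyx, 3 of the genes whose levels went together across mice. Each runs 5′ to 3′ in the gene's direction, from 250 bases before to 50 after an annotated transcript start, and capitals mark GGGCGG or its reverse complement CCGCCC, the core of the GC box bound by Sp1-type factors. The Actn1 promoter lies on the minus strand at chr12:80260314-80260613, that of Flna on the minus strand at chrX:74246485-74246784 and that of Zyx on the plus strand at chr6:42349578-42349877.
Actn1: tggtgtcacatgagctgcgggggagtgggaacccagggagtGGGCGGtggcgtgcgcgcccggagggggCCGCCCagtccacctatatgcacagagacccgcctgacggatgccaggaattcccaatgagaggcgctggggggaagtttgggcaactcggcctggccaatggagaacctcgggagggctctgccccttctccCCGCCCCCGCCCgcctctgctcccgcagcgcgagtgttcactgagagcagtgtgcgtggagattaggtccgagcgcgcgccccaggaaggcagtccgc
Flna: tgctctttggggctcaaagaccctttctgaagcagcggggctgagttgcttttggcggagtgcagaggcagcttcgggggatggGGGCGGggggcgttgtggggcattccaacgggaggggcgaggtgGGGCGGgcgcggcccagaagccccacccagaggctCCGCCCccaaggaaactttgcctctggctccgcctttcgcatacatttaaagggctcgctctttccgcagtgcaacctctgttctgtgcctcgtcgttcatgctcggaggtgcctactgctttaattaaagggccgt
Zyx: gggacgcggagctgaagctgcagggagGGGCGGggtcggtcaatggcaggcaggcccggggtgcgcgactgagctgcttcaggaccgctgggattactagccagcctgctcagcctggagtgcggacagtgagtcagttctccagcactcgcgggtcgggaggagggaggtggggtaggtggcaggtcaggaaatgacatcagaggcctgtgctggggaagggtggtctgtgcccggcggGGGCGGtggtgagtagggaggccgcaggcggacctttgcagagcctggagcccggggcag
In capitals, Actn1 showed 4 copies of the motif, Flna 3 and Zyx 2. The table held 8 promoters for 7 of the 9 genes, and GGGCGG on either strand was in 8 of 8, against 35.7 percent of all 32851 promoters of the same length. The 8 were rich in G and C, at 62 percent or more, and among the 8101 promoters at that content or above 83.5 percent held the motif. The CArG box, the site of serum response factor and named here without its letters, was in 0 of the 8 and in 1.63 percent of all promoters. A TGANTCA match (an AP-1 type site) was in the Zyx promoter and in 7.81 percent of all, and a CATTCC match on either strand (a TEAD type site) was in the Flna promoter and in 14.7 percent of all. CCAAT on either strand was in the Actn1 promoter and in 1 of 2 Bcar1 promoters, against 37.4 percent of all. These matches describe letters within 300 bases only.

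The 9 transcripts covered a wide span of abundance, which was compared per kilobase of annotated exon (GENCODE M21). Tns1 (GRCm38 chromosome 1, 73910232 to 74124548) stood highest at 88.7 ± 11.8 CPM per kilobase (SD over 16 mice), and its lowest mouse (70.9) lay above the highest mouse of every other member. Kank2 (chromosome 9, 21766773 to 21798546) followed at 25.9 ± 2.08 and Flna (chromosome X, 74223461 to 74249854) at 21.9 ± 4.33 CPM per kilobase, and the ranges of this pair overlapped. Next, and below every Flna value, Zyx (chromosome 6, 42349511 to 42360213) stood at 11.1 ± 1.76, Pxn (chromosome 5, 115491970 to 115555987) at 8.42 ± 0.980, Actn1 (chromosome 12, 80167542 to 80260420) at 8.42 ± 1.48 and Bcar1 (chromosome 8, 111710474 to 111743849) at 6.32 ± 0.616 CPM per kilobase, and the ranges of neighbours among these 4 overlapped. Ptk2 (chromosome 15, 73205102 to 73423820) at 4.37 ± 0.279 CPM per kilobase lay below every Bcar1 value. Tns3 (chromosome 11, 8431652 to 8664758) was lowest at 2.86 ± 0.434 CPM per kilobase, with no overlap with Ptk2. The 2 tensin genes stood at the top and the bottom of the list. The lengths join the exons of all annotated transcripts, so a gene with many unused exons is placed too low.

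Whether loss of Tln1 from fibroblasts goes with other levels of these transcripts was asked by comparing the genotypes with sex as a term. None of the 9 passed. In the knockout the log2 fold change was below 0 for 8 of 9 genes, with a median of -0.07, where 51.2 percent of all 13775 genes lay below 0. At an adjusted p under 0.05 (edgeR's quasi-likelihood test with Benjamini-Hochberg adjustment over all genes) 0 of 9 members were called, as were 0 percent of all genes. At an unadjusted p under 0.05 there were 2 of 9, Tns3 and Zyx, against 5.08 percent of all genes, and each was lower, as were 3.17 percent of all genes. DESeq2 and limma-voom called 0 of the 9 for genotype, and over the 25 alternative settings of this comparison the lowest adjusted p of any member was 0.347. For each member the knockout and Tln2-null values overlapped, whereas 0.0436 percent of all genes had groups that did not overlap.

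**Figure D1:**
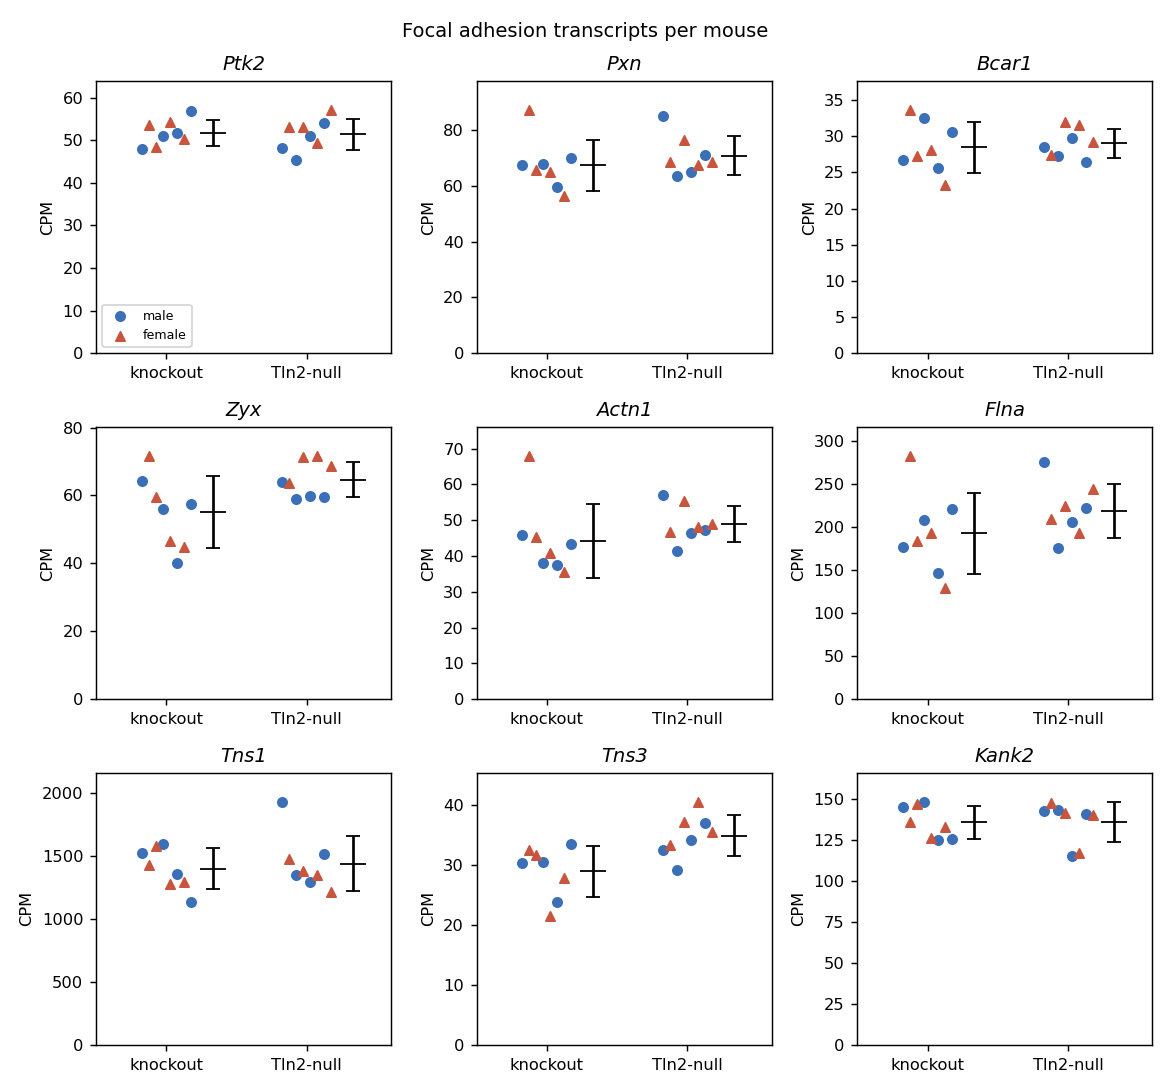
CPM of each member (vertical axis, from 0) in every mouse, knockout left of Tln2-null, with circles for males, triangles for females and the mean ± SD of 8 mice beside each group. Tns3 and Zyx reached down to 21.6 and 40.2 CPM in the knockout, below every Tln2-null mouse, while Ptk2 and Kank2 overlapped over most of their spans.

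The 3 signalling genes had log2 fold changes between -0.07 and 0.01. Ptk2 encodes focal adhesion kinase, the tyrosine kinase that integrin clustering activates. Its lowest, median and highest values were 47.9, 51.4 and 57.0 CPM in knockout mice, against 45.3, 52.0 and 57.1 CPM in Tln2-null mice. The spans nearly coincided, and the log2 fold change was 0.01 ± 0.05 (SE, edgeR adjusted p = 0.994), with an approximate 95 percent interval of -0.09 to 0.12. Pxn encodes paxillin, the scaffold that focal adhesion kinase phosphorylates. It ran over 56.4, 66.5 and 87.0 CPM in knockout and 63.4, 68.5 and 85.0 CPM in Tln2-null mice (lowest, median and highest). In each group 1 mouse, knockout replicate 2 and Tln2-null replicate 1, stood at 85.0 CPM or more, and the log2 fold change was -0.07 ± 0.08 (adjusted p = 0.948). It was -0.13 without knockout replicate 2, -0.02 without Tln2-null replicate 1 and 0.03 with the 4 Y-positive females left out. Bcar1 encodes p130Cas, a scaffold whose substrate domain is stretched and phosphorylated under load. With 8 mice in each group, it averaged 28.5 ± 3.53 CPM in knockout and 29.0 ± 2.04 CPM in Tln2-null mice (mean ± SD), and the log2 fold change was -0.03 ± 0.07 (edgeR adjusted p = 0.984).

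Among the actin-linking genes, Zyx, which encodes the LIM protein that moves to strained actin fibres, was below its average in Tln2-null mice in all knockout mice but replicate 2. Its lowest, median and highest values were 40.2, 56.8 and 71.5 CPM in knockout and 59.0, 63.7 and 71.6 CPM in Tln2-null mice. Knockout replicates 5, 6 and 7 made up the low end at 46.5, 40.2 and 44.8 CPM, and the top of the 2 groups coincided. The log2 fold change was -0.23 ± 0.10 (adjusted p = 0.936, unadjusted p = 0.0302 in edgeR). It was -0.18 ± 0.09 with the number in the sample titles as a covariate and -0.09 ± 0.10 once the 4 females with Y-linked reads were left out, 2 of which (knockout replicates 5 and 7) were among the low 3. Actn1 encodes the non-muscle alpha-actinin that crosslinks actin. It had 35.5, 42.1 and 67.9 CPM in knockout and 41.3, 47.6 and 57.0 CPM in Tln2-null mice (lowest, median and highest). The highest and the lowest mouse of all 16 were both knockouts, and the log2 fold change was -0.15 ± 0.11 (edgeR adjusted p = 0.942). Without knockout replicate 2 it was -0.25 ± 0.08 (edgeR adjusted p = 0.347), and with the 4 females left out it was -0.01 ± 0.12. Flna encodes filamin A, which joins actin filaments into networks and competes with talin for integrin tails. It had 129.3, 188.1 and 282.4 CPM in knockout and 175.1, 215.5 and 275.0 CPM in Tln2-null mice. Here too the knockout span enclosed that of the Tln2-null mice, with a log2 fold change of -0.18 ± 0.13 (adjusted p = 0.939). It was -0.28 ± 0.11 without knockout replicate 2 and -0.04 ± 0.14 with the 4 Y-positive females left out.

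Tns3 and Tns1 encode tensins, adaptors that bind beta-integrin tails and actin. Tns3 had 21.6, 30.4 and 33.6 CPM in knockout, against 29.1, 34.8 and 40.6 CPM in Tln2-null mice (lowest, median and highest), and all 8 knockout mice lay below the Tln2-null mean of 34.9 CPM. Knockout replicates 5, 6 and 7 were again the lowest, at 21.6, 23.8 and 27.9 CPM, and the other 5 knockout mice lay within the Tln2-null span. The log2 fold change was -0.27 ± 0.09 (adjusted p = 0.755, unadjusted p = 0.00812 in edgeR), and 1.04 percent of all genes had a p as low. Across the alternative settings it ran from -0.31 to -0.17, the value nearest 0 being that with the 4 females left out. Tns1 showed no such difference, with 1400 ± 163.3 CPM in knockout and 1440 ± 220.5 CPM in Tln2-null mice (log2 fold change -0.04 ± 0.09, edgeR adjusted p = 0.975). Kank2, whose product binds the talin rod and links adhesions to cortical microtubules, averaged 135.6 ± 9.90 CPM in knockout and 135.9 ± 12.4 CPM in Tln2-null mice (0.00 ± 0.06, edgeR adjusted p = 0.999). Its approximate 95 percent interval, -0.13 to 0.12 on the log2 scale, was among the narrowest of the list, as was that of Ptk2.

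**Figure D2:**
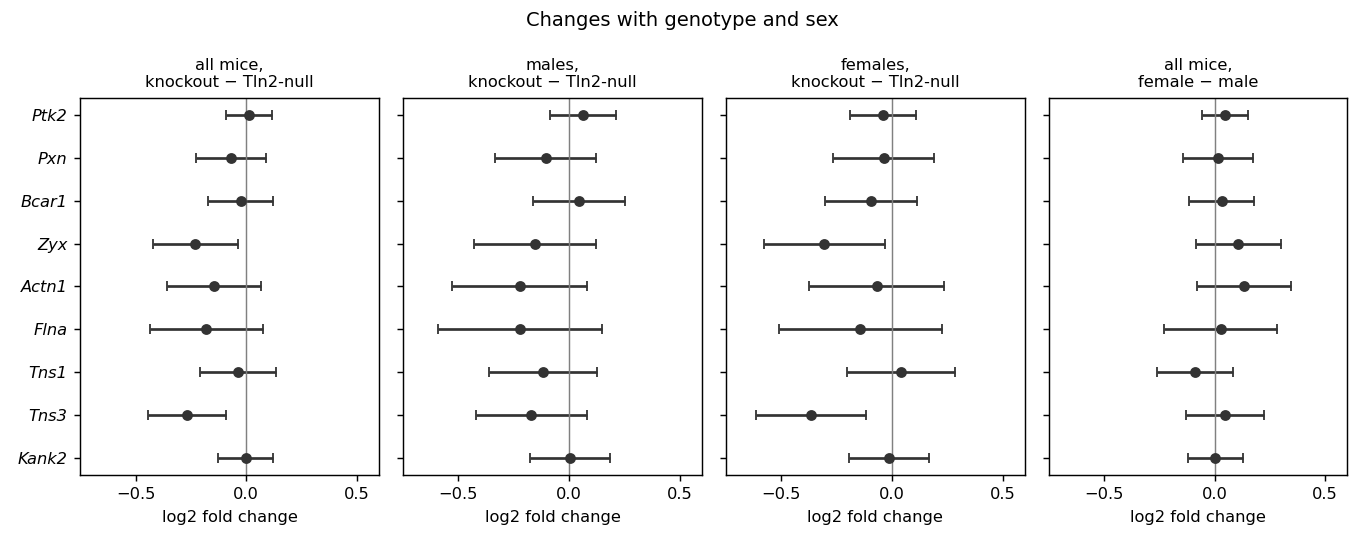
Log2 fold changes (horizontal axis) of the members from edgeR with approximate 95 percent intervals, for knockout minus Tln2-null in all mice, in males and in females, and for female minus male. The intervals of Tns3 and Zyx lie below 0 in all mice and in females, and none of the members passed adjustment over all genes.

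The sexes were compared because 1 member, Flna, is X-linked, and because the genotype difference could depend on sex. None of the 9 passed for female against male (0 of 9, against 0.0871 percent of all genes, edgeR), and 0 of 9 had an unadjusted p under 0.05, against 3.69 percent of all genes in either direction and 1.65 percent lower in females. Flna averaged 207.3 ± 45.3 CPM in the 8 females and 203.8 ± 38.7 CPM in the 8 males (mean ± SD), with a log2 fold change of 0.03 ± 0.13. Actn1 showed the largest difference, at 48.6 ± 9.77 CPM in females and 44.5 ± 6.24 CPM in males (0.13 ± 0.11, edgeR adjusted p = 0.9998). Within females, Tns3 averaged 28.4 ± 5.01 CPM in knockout and 36.7 ± 3.01 CPM in Tln2-null mice (SD, n = 4 each), and the log2 fold change was -0.37 ± 0.13 (edgeR adjusted p = 0.9998). Within males it averaged 29.5 ± 4.09 CPM in knockout and 33.2 ± 3.31 CPM in Tln2-null mice (-0.17 ± 0.13, edgeR adjusted p = 0.807). For Zyx the log2 fold changes were -0.31 ± 0.14 in females and -0.15 ± 0.14 in males. The direct test of the genotype effect in females minus that in males gave -0.20 ± 0.18 for Tns3 and -0.15 ± 0.20 for Zyx (edgeR adjusted p = 0.980 and 0.983), with 0 of 9 members called and 0 percent of all genes. Without knockout replicate 5 the Tns3 value was -0.08, without knockout replicate 7 that of Zyx was -0.06, and with the 4 Y-positive females left out they were 0.00 and 0.23. At an unadjusted p under 0.05 this test took 0 of 9 members, against 4.27 percent of all genes, 2.25 percent with a negative difference. Knockout against Tln2-null called 0 of 9 in females and 0 of 9 in males, with 2 of 9 and 0 of 9 at an unadjusted p under 0.05, where all genes gave 3.31 and 6.07 percent (1.92 and 3.3 percent lower in knockout). With the 4 Y-positive females left out, 1 knockout female remained, replicate 2, and Actn1, Flna, Pxn, Bcar1 and Zyx were then higher in knockout than in Tln2-null females (log2 fold changes of 0.50, 0.39, 0.35, 0.19 and 0.07), so these values rest on that mouse.

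The members varied among mice of the same genotype and sex, and several did so together. After genotype and sex were removed, the SD of log2 CPM was 0.29 for Flna, larger than in 93.5 percent of the 1588 genes within 2-fold of its level. It was 0.23 for Actn1 and 0.22 for Zyx, larger than in 86.0 and 84.2 percent of genes near their levels. Ptk2 varied little (0.10, larger than in 14.1 percent). From the lowest to the highest mouse Flna spanned 2.18-fold, Actn1 1.92-fold, Tns3 1.88-fold and Zyx 1.78-fold, but Kank2 1.29-fold and Ptk2 1.26-fold.

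Of the 36 pairs of members, 10 correlated across the 16 mice at an adjusted p under 0.05 (Pearson, permutation test with 100000 resamples, adjusted over the 36 pairs), all positively. By Spearman's rho 12 did. The median r over the 36 pairs was 0.33, whereas the median r of each member with all other genes at 2 CPM or more lay between -0.02 and 0.01. That background was wide. Its lower quartile lay between -0.32 and -0.24 and its upper quartile between 0.22 and 0.33, by member. The share of all gene pairs that would pass was not computed. Pxn with Actn1 had r = 0.914 (rho = 0.826), with adjusted p = 0.00018 and 0.00225 by permutation, the first from the smallest p that 100000 permutations give (1e-05). Without the 2 mice farthest from the Pxn median r was 0.834, and it was 0.929 within knockout and 0.918 within Tln2-null mice (exact permutation p = 0.00377 and 0.000967, n = 8 each). Pxn with Flna was as close, with r = 0.913 and rho = 0.947 (permutation adjusted p = 0.00018 each), 0.880 without 2 mice, and 0.953 within knockout and 0.835 within Tln2-null mice (exact permutation p = 0.000397 and 0.00888). Actn1 with Flna had r = 0.829 and rho = 0.826 (permutation adjusted p = 0.0009 and 0.00225), 0.716 without 2 mice, 0.800 within knockout and 0.823 within Tln2-null mice (exact permutation p = 0.0173 and 0.015). For these 3 pairs of paxillin, alpha-actinin and filamin A transcripts r was thus 0.800 or more in each genotype.

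**Figure D3:**
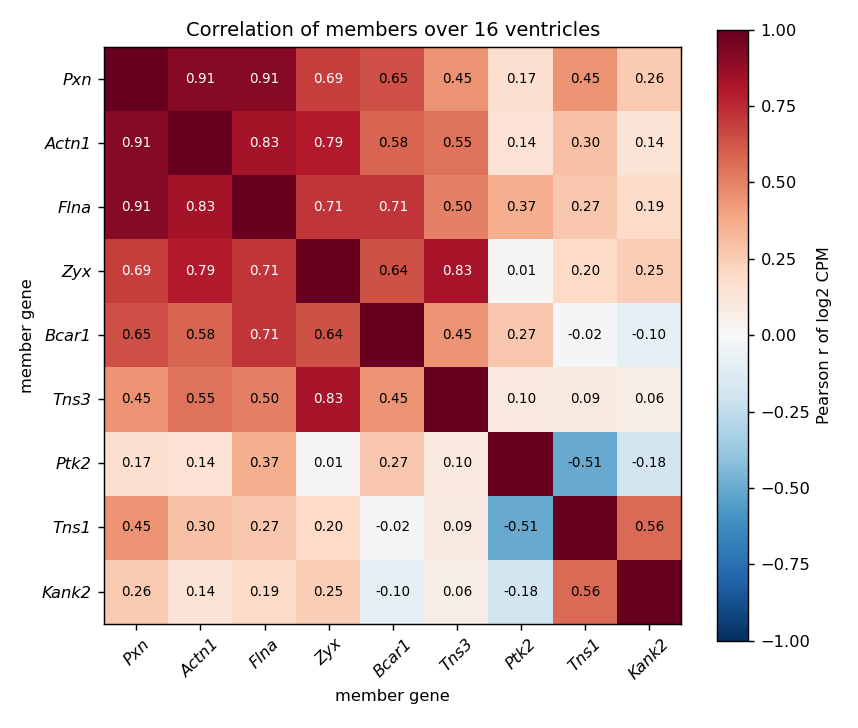
Pearson r of log2 CPM over the 16 mice for each pair of members (both axes list the members, colour and number give r). Pxn, Actn1, Flna, Zyx and Bcar1 form a block with r of 0.58 to 0.91, while Ptk2, Tns1 and Kank2 stand outside it.

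Pxn, Bcar1, Zyx, Actn1 and Flna made up 10 pairs, of which 9 passed (r from 0.580 to 0.914). The group was drawn after the values were seen, so it carries no test of its own. For Zyx, r was 0.694 with Pxn (rho = 0.629), 0.791 with Actn1 (rho = 0.894) and 0.713 with Flna (rho = 0.588), with permutation adjusted p of 0.0174, 0.0018 and 0.0115 for r and 0.0346, 0.00018 and 0.0529 for rho. Without the 2 mice farthest out these were 0.773, 0.718 and 0.402. For Bcar1, r was 0.645 with Pxn (rho = 0.600), 0.635 with Zyx (rho = 0.532) and 0.714 with Flna (rho = 0.656), with permutation adjusted p of 0.0264, 0.0278 and 0.0115 for r and 0.0473, 0.0933 and 0.0322 for rho. Without 2 mice they were 0.698, 0.455 and 0.444. The mice left out differed by pair, so these values are not like for like. They were knockout replicate 2 and Tln2-null replicate 1 for the pairs with Pxn. For Bcar1 with Zyx and Flna they were knockout replicates 7 and 2, and for Zyx with Actn1 and Flna knockout replicates 6 and 7. The relations of Bcar1 with Zyx and Flna, and that of Zyx with Flna, rested in part on the mice left out for them. Within genotypes Bcar1 and Flna had r = 0.946 in knockout and 0.036 in Tln2-null mice (exact permutation p = 0.00057 and 0.931, n = 8 each). The difference between these was not tested. In all, 7 of 36 pairs passed within knockout mice and 1, Pxn with Actn1, within Tln2-null mice (exact permutation, adjusted over 36). Knockout replicate 2 was the highest of its group for Pxn, Bcar1, Zyx, Actn1 and Flna, and knockout replicates 6 and 7 were the 2 lowest for the same 5 genes. The count of 10 pairs was 5 without knockout replicate 7, 6 without knockout replicate 6 and 3 with the 4 Y-positive females left out.

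Tns3 passed by Pearson's r with Zyx alone, and by Spearman's rho also with Actn1 (0.721), Pxn (0.638) and Flna (0.635), with permutation adjusted p of 0.0177, 0.0346 and 0.0346. Zyx and Tns3 had r = 0.827 and rho = 0.700 (permutation adjusted p = 0.0009 and 0.0215), 0.795 without 2 mice, 0.787 within knockout and 0.666 within Tln2-null mice (exact permutation p = 0.0191 and 0.0672). Tns1 and Tns3 shared almost no variation (r = 0.088, rho = -0.02, permutation adjusted p above 0.05 for each), and no relation between the 2 tensin transcripts was seen. Tns1 went most with Kank2 (r = 0.564, rho = 0.682, permutation p = 0.0218 and 0.00459 before adjustment, r = 0.599 without 2 mice). This pair passed the adjustment by rho (0.0236) but not by r (0.0653). Within genotypes its r was 0.884 in knockout and 0.365 in Tln2-null mice (exact permutation adjusted p = 0.0338 and 0.771). Ptk2 with Tns1 was the lowest pair (r = -0.51, rho = -0.47, permutation p = 0.0444 and 0.0726 before adjustment, r = -0.61 without 2 mice) and did not pass either. Within genotypes r was -0.78 in knockout and -0.32 in Tln2-null mice (exact permutation adjusted p = 0.0806 and 0.791). Pxn with Tns1 had r = 0.448 over the 16 mice, 0.148 within knockout and 0.795 within Tln2-null mice (exact permutation adjusted p = 0.833 and 0.213 within genotypes). Ptk2 showed r of 0.170 and 0.271 with Pxn and Bcar1, the genes of its partners paxillin and p130Cas (rho = 0.365 and 0.276, permutation adjusted p = 0.681 and 0.513 for r), over a narrow range of Ptk2 levels.

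**Figure D4:**
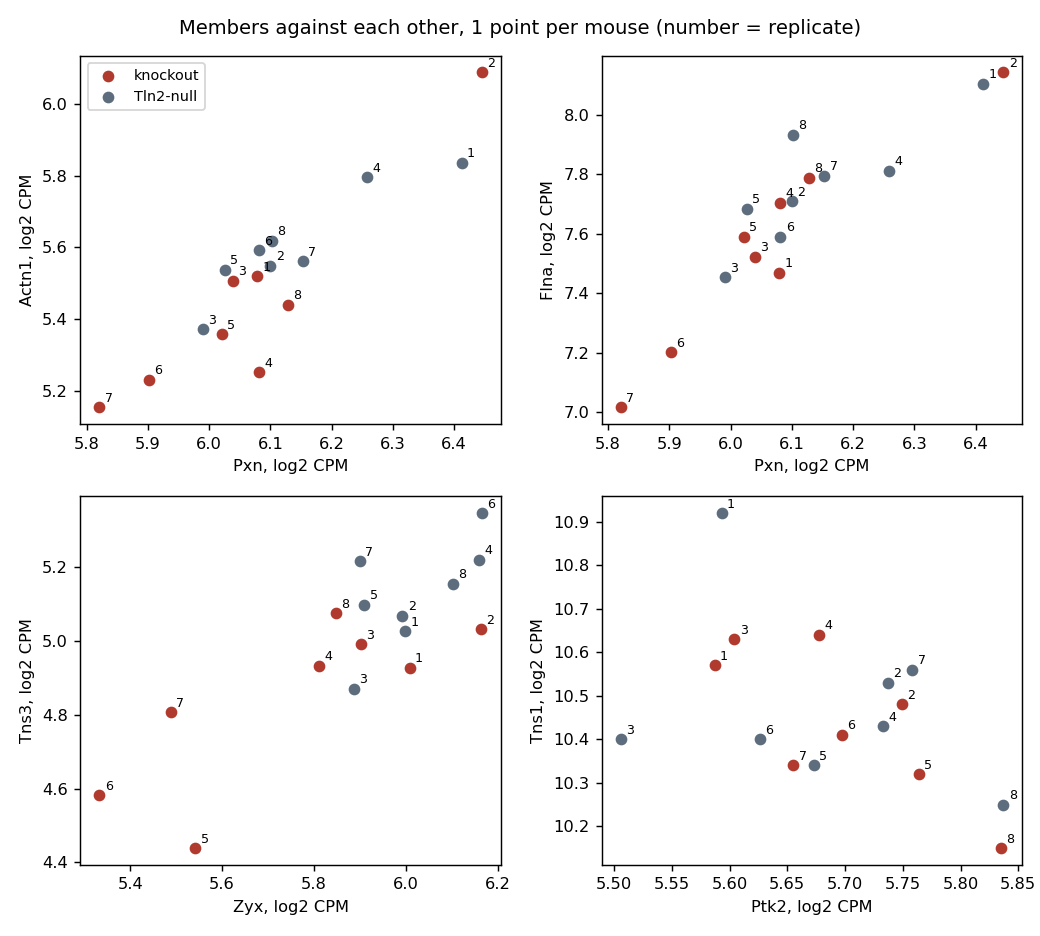
Log2 CPM of 4 pairs of members, 1 point per mouse with its replicate number, knockout in red and Tln2-null in grey. Knockout replicates 2 and 7 hold the ends of the 2 upper panels. Zyx and Tns3 fall together in knockout replicates 5, 6 and 7. Ptk2 and Tns1 had r = -0.51, which did not pass (permutation adjusted p = 0.113).

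The same libraries differed in their content of cell type markers. The 16 fibroblast markers were lower in the knockout in 16 of 16 (median log2 fold change -0.44), 11 at an unadjusted p under 0.05 and 0 after adjustment in edgeR, and their sum ran from 2789 to 4910 CPM in knockout and from 3662 to 5516 CPM in Tln2-null mice. Over all genes 51.2 percent lay below 0, 5.08 percent had an unadjusted p under 0.05 and 3.17 percent had one and were lower, the background for this list and those that follow. Cardiomyocyte markers were higher in 13 of 14 (median 0.07), 3 at an unadjusted p under 0.05. Endothelial markers were lower in 6 of 12 (median -0.01, 1950 to 2459 CPM in knockout and 1993 to 2401 CPM in Tln2-null mice). Smooth muscle and pericyte markers were lower in 11 of 14 (median -0.12), 3 lower and 2 higher at an unadjusted p under 0.05, with sums of 4511 to 5478 CPM in knockout and 4621 to 5308 CPM in Tln2-null mice. Of the macrophage and leukocyte list 15 of 16 were measured, 5 lower (median 0.03). Of the erythroid and platelet list 4 of 8 were measured, 3 lower (median -0.28, 16.9 to 35.1 CPM in knockout and 25.6 to 54.9 CPM in Tln2-null mice), and of the atrial list 3 of 6, all lower (median -0.29). In each list 0 markers passed over all genes tested (edgeR).

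Of 63 relations between a member and the mean log2 level of a marker list, 14 passed over the 16 mice (Pearson, permutation test adjusted over the 63), and 11 by Spearman's rho. The share of all genes that would pass with these lists was not computed, so the count is not a trait particular to the members. Within genotypes 4 passed in knockout and 0 in Tln2-null mice (exact permutation, adjusted over the 63). The within-genotype p-values given below for single relations are unadjusted. Actn1 fell as cardiomyocyte markers rose from mouse to mouse, with r = -0.92 and rho = -0.86 (permutation adjusted p = 0.00126 for r), -0.84 without 2 mice, -0.97 within knockout and -0.61 within Tln2-null mice (exact permutation p = 0.00112 and 0.104). Pxn, Flna and Zyx were likewise lower where cardiomyocyte markers were higher (r = -0.82, -0.75 and -0.75, rho = -0.70, -0.66 and -0.72, permutation adjusted p = 0.00299, 0.00687 and 0.00687). Without 2 mice these were -0.64, -0.65 and -0.62. For Zyx the relation was -0.77 within knockout but -0.07 within Tln2-null mice (exact permutation p = 0.0118 and 0.873).

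Flna went most with smooth muscle and pericyte markers (r = 0.818, rho = 0.715, permutation adjusted p = 0.00299 for r), with 0.683 without 2 mice, 0.819 within knockout and 0.806 within Tln2-null mice (exact permutation p = 0.0134 and 0.0143). This holds for the mean log2 level, and r with the summed CPM was not computed. Knockout replicate 2, the highest mouse for Flna (282.4 CPM), had a sum of 4680 CPM for this list. The highest sum, 5478 CPM, was in knockout replicate 3 (Flna 183.7 CPM). Pxn and Actn1 went with this list as well (r = 0.745 and 0.697, permutation adjusted p = 0.00687 and 0.0153). Endothelial markers went with Actn1 (r = 0.791), Pxn (0.773), Zyx (0.682) and Flna (0.671), with permutation adjusted p of 0.00299, 0.00416, 0.0182 and 0.0189 (rho = 0.644, 0.624, 0.632 and 0.559). By rho the first of these 4 passed. Fibroblast markers went with Zyx (r = 0.734, rho = 0.709), Tns3 (r = 0.723, rho = 0.800) and Actn1 (r = 0.672, rho = 0.691), with permutation adjusted p of 0.00687, 0.00687 and 0.0189 for r. Within genotypes the Tns3 relation was 0.509 in knockout and 0.671 in Tln2-null mice (exact permutation p = 0.2 and 0.0623, n = 8 each), that of Zyx 0.769 and 0.347 (p = 0.0242 and 0.382, exact permutation) and that of Actn1 0.903 and 0.0709 (p = 0.00208 and 0.846, exact permutation), knockout first in each. No relation of Ptk2, Bcar1, Tns1 or Kank2 with any of the 7 lists passed. All levels are relative to a scaled library total, so more RNA from 1 cell type can lower the levels of other genes. Over the 16 mice Ptk2, Kank2 and Tns1 had r of 0.00, -0.16 and -0.29 with cardiomyocyte markers. For Tns1 it was -0.15 within knockout and -0.83 within Tln2-null mice (exact permutation p = 0.745 and 0.0162, unadjusted). The part of cell content in the members' variation was not tested.

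**Figure D5:**
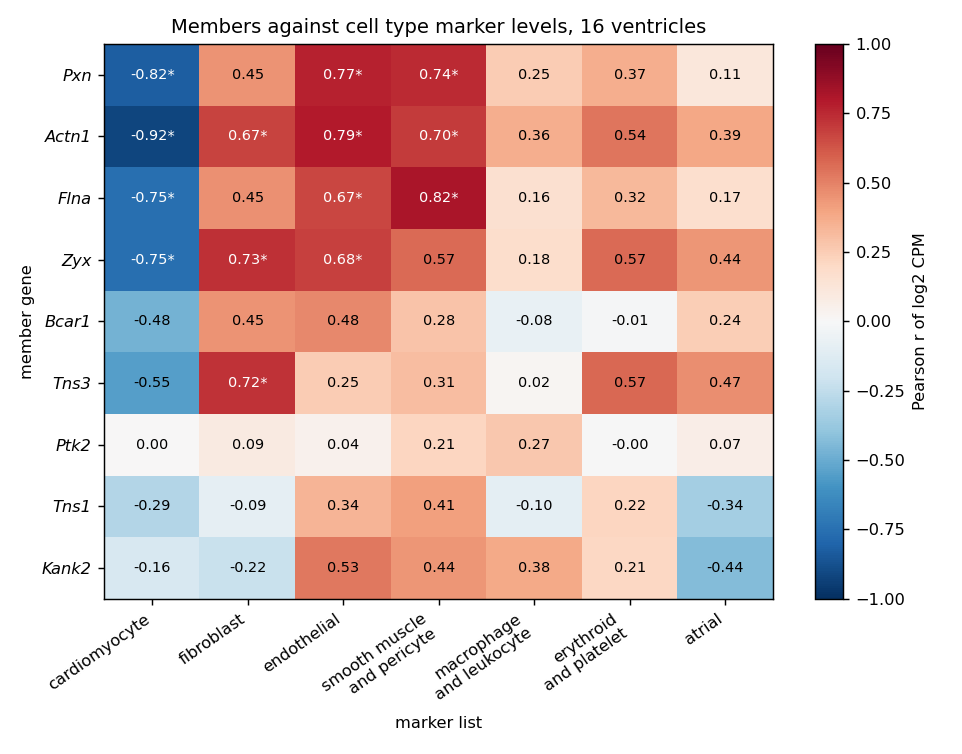
Pearson r over the 16 mice between log2 CPM of each member (vertical) and the mean log2 CPM of each marker list (horizontal), with an asterisk where the permutation p adjusted over the 63 relations was under 0.05. Pxn, Actn1, Flna and Zyx are blue for cardiomyocyte markers (-0.92 to -0.75) and red for endothelial markers, Tns3 is marked for fibroblasts alone, and Ptk2, Bcar1, Tns1 and Kank2 have no asterisk.

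The genes whose levels most resembled each member were listed by Pearson r after removal of genotype and sex, over 16 libraries and 12010 genes at 2 CPM or more, as a description. For Pxn they included Actn1 itself (r = 0.936), and for Actn1 they were Arhgef2 (r = 0.951) and Pxn. For Flna they were Arhgap23 (r = 0.964) and Arhgap31 (r = 0.951). Zyx was nearest to Tlnrd1 (r = 0.941), which encodes a protein with a talin rod domain, and to the transcriptional regulator gene Ski (r = 0.888). Bcar1 was nearest to Erg (r = 0.879), an endothelial transcription factor gene, and Pald1 (r = 0.864), Tns1 to Gigyf1 (r = 0.962) and Nup214 (r = 0.953), and Kank2 to Arfgef2 (r = 0.893) and Serac1 (r = 0.886). Ptk2 was nearest to Usp42 (r = 0.899) and Kctd12 (r = 0.879), Tns3 to Gimap5 (r = 0.861) and Trps1 (r = 0.846), and the second gene for Pxn was 2900026A02Rik (r = 0.924).

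The genes of 5 members were set against a paralogue in the same library as a difference of log2 CPM. Exon length was not taken into account, so the gaps do not measure relative abundance. The genotype differences do not depend on it. Actn1 stood below Actn2, the sarcomeric alpha-actinin gene, by -6.07 ± 0.35 in knockout and -5.92 ± 0.17 in Tln2-null mice (SD, n = 8 each, exact permutation adjusted p = 0.527). Flna stood below Flnc, the muscle filamin gene, by -1.61 ± 0.39 in knockout and -1.66 ± 0.37 in Tln2-null mice, a genotype difference of 0.05 (exact permutation adjusted p = 0.795). Flnc by itself averaged 576.1 ± 57.7 CPM in knockout and 693.0 ± 107.6 CPM in Tln2-null mice. Ptk2 exceeded its relative Ptk2b by 1.81 ± 0.35 in knockout and 1.62 ± 0.28 in Tln2-null mice, and Kank2 exceeded Kank1 by 0.76 ± 0.13 in knockout and 0.69 ± 0.21 in Tln2-null mice (exact permutation adjusted p = 0.527 and 0.593). Tns3 lay -2.84 ± 0.23 from Tns2 in knockout and -2.59 ± 0.28 in Tln2-null mice, a difference of -0.25 (exact permutation p = 0.078, adjusted p = 0.39 over the 5). Each two-sided test exchanged labels within sex in 4900 ways. Without Tln2-null replicate 1 the Tns3 difference was -0.34 (exact permutation adjusted p = 0.0347). In 19 other alternative settings the result was classed as the same as the main one, which did not pass.

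Around these members, 106 of 109 other genes of the adhesion and actin machinery were measured, and 0 passed for genotype (edgeR), with 7 lower and 1 higher at an unadjusted p under 0.05 and a median log2 fold change of -0.03. Over all genes 5.08 percent had such a p, 3.17 percent being lower, and 51.2 percent lay below 0, where 67 of the 106 did. Among 32 genes that signal with focal adhesion kinase, paxillin and p130Cas, 15 were lower (median 0.00). The kinase gene Pak1 averaged 2.16 ± 0.514 CPM in knockout and 3.19 ± 0.772 CPM in Tln2-null mice, and Efs, a relative of Bcar1, 3.11 ± 1.01 in knockout and 4.32 ± 0.802 CPM in Tln2-null mice (log2 fold changes of -0.57 ± 0.18 and -0.47 ± 0.18). Of 16 zyxin relatives and Ena/VASP partners 12 were lower (median -0.06), such as Csrp1 at -0.22 ± 0.09 and Enah, which encodes an actin elongation factor, at -0.14 ± 0.07. Of 24 measured crosslinkers and stress fibre genes 19 were lower (median -0.07), among them the smooth muscle calponin gene Cnn1 at -0.64 ± 0.20, Flnc at -0.27 ± 0.09 and the myosin light chain gene Myl9 at -0.37 ± 0.13. The edgeR adjusted p of these 7 genes ran from 0.755 to 0.936.

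Of 6 measured tensin relatives and partners 3 were lower (median 0.00), Cttn (cortactin) having the lowest p at -0.08 ± 0.05. Among 12 genes of the KANK family and its cortical partners 6 were lower (median 0.03), and the kinesin gene Kif21a, whose product binds KANK, was the single gene above 0 with an unadjusted p under 0.05 (54.7 ± 4.17 CPM in knockout and 50.2 ± 3.05 CPM in Tln2-null mice, 0.12 ± 0.05). In the talin, kindlin and integrin-linked kinase list 12 of 16 measured genes were lower (median -0.08), led by Itgb5 at -0.16 ± 0.08, an integrin subunit gene. For sex, 0 of the 106 passed in edgeR, with 3 higher in females at an unadjusted p under 0.05, Lpp, Itgb3 and Cass4 (named after their values were seen), and a median of 0.04. Over all genes 3.69 percent had such a p for sex, so 3 of 106 is no more than the background.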

How the data were processed

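Total RNA from 16 left ventricles was sequenced, with TRIzol and column extraction and directional libraries per the labels' protocols. The deposited table of counts per gene symbol was used. Per the submitters' processing notes, DRAGEN, DESeq2 and mm10 were used, with no version or role stated and no annotation named. A second deposited table holds a normalized signal, the authors' counts divided by 1 size factor per library (100 percent of values whole to within 0.001 after scaling, 16384 genes compared and equal), and was used for this check alone. In 26 entries the symbol had become a date. None is a gene named here. Reads shared between similar genes could not be followed.

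Groups and sex came from the labels, and replicate numbers 1 to 8 within a genotype follow record order. The p-values rest on the spread between these mice and take the mice as independent. Nothing says that they came from independent litters, and the p-values may be too small if litters were shared. The 9 genes, the lists and the tests were chosen with earlier results of these data known. The test on the deposited counts was that of edgeR 4.0.16 under R 4.3.3 (filterByExpr by genotype and sex, TMM, quasi-likelihood, genotype and sex as terms, or 1 mean per genotype and sex), adjusted by Benjamini-Hochberg and called under 0.05. The SE is the absolute log2 fold change over the root of F, and intervals are normal 95 percent intervals from it. The test was run first on simulated counts with known changes. Log2 CPM used a prior count of 2. A count of 0 allows a level of up to 3 counts, or 0.156 to 0.269 CPM by library (counting error only). Named genes are the 9 members, up to 4 genes of lowest p per pathway list, 5 paralogues and 2 most similar genes per member. Those lists were signalling around focal adhesion kinase, zyxin relatives, crosslinkers, tensin partners, KANK partners and the talin complex, beside 7 lists of cell type markers. Alternatives were DESeq2 1.42.0, limma-voom (limma 3.58.1), other scaling, filters, prior count 0.5 and covariates, and leaving out libraries. Promoters and positions are from RefSeq GRCm38.p6.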

Additional observations from a re-analysis of the deposited data

Results flagged for a closer look

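Of 18 sets of 8 values (9 genes in each genotype), 3 held a mouse set apart from its group by a gap of more than 0.526 of the whole range, where chance gives about 1 in 20. Knockout replicate 2 stood at 87.0 CPM for Pxn and at 67.9 CPM for Actn1, with the lowest summed cardiomyocyte markers (66620 CPM) and the highest summed fibroblast markers (4910 CPM) of the knockout mice. Tln2-null replicate 1 stood at 1932 CPM for Tns1, against 1215 to 1514 CPM in the other 7 Tln2-null mice. It had the lowest summed cardiomyocyte markers of its group (69390 CPM).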

How the results depend on the processing

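Every alternative named under processing was run. Genes called over the whole table (0 for genotype, edgeR) were 1 with no filter, 17 with DESeq2, 11 with limma-voom, 5 without knockout replicate 8 and Tln2-null replicate 8, and 0 to 7 with 1 mouse left out. In females (0) they were 2 with DESeq2 and 0 to 1 with 1 mouse left out, and for sex (12) they were 21 with DESeq2. No member was among those called for genotype, where the lowest adjusted p of a member was 0.347. Pairs of members past the threshold (10) were 3 without the 4 Y-positive females and 5 to 11 with 1 mouse left out. Marker relations (14) were 8 to 16 with 1 mouse left out, the lowest without knockout replicate 6.

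Signs of several members' log2 fold changes turned, and the cause was not tested. Most of these lay near 0, but without the 4 Y-positive females the genotype value of Zyx in females (-0.31) turned as well. So did the genotype effect in females minus that in males for Zyx (-0.15) and Tns3 (-0.20). For genotype, log2 fold changes were -0.0145 for Ptk2, 0.01217 for Tns1 and 0.02716 for Kank2 with limma-voom, and -0.01952, 0.04525 and 0.03451 for the same genes with the title number as a covariate. Kank2 was 0.0231 without both replicates 8. Without the Y-positive females Pxn was 0.02588, Bcar1 0.08736 and Kank2 0.00777. For female against male, Kank2 was -0.0003791 with the title number, -0.02176 without both replicates 8 and -0.005315 without the Y-positive females. In females, without the Y-positive ones, Ptk2 was 0.01268, Pxn 0.3499, Bcar1 0.1913, Zyx 0.07361, Actn1 0.502, Flna 0.3903 and Kank2 0.01025. Without both replicates 8 Ptk2 was 0.001798, Tns1 -0.003305 and Kank2 0.00584 in females, and Kank2 was 0.02124 with limma-voom and 0.01166 with the title number. For the genotype effect in females minus that in males, Pxn was -0.008519 and Kank2 0.003328 with limma-voom. Without the Y-positive females this difference was 0.1445 for Bcar1, 0.2261 for Zyx, 0.003628 for Tns3 and 0.003399 for Kank2.

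With 1 mouse left out, genotype values ran from -0.01085 to 0.03376 for Ptk2, -0.1333 to -0.02129 for Pxn, -0.06151 to 0.01861 for Bcar1, -0.0708 to 0.0323 for Tns1 and -0.0336 to 0.01857 for Kank2. For sex they ran from -0.04973 to 0.06133 for Pxn, -0.008057 to 0.07073 for Bcar1, -0.08021 to 0.09399 for Flna and -0.03176 to 0.03164 for Kank2. In males they ran from -0.01623 to 0.1018 for Bcar1, -0.1855 to 0.01719 for Tns1 and -0.06348 to 0.04705 for Kank2. In females they ran from -0.1651 to 0.0488 for Pxn, -0.2871 to 0.04922 for Actn1, -0.3593 to 0.01663 for Flna, -0.01933 to 0.08892 for Tns1 and -0.07412 to 0.03174 for Kank2. Values of the genotype effect in females minus that in males ran from -0.2854 to -0.08264 for Tns3, -0.2889 to -0.06001 for Zyx and -0.05923 to 0.1524 for Pxn. They ran from -0.06338 to 0.2702 for Actn1, -0.1389 to 0.2345 for Flna and -0.08138 to 0.05553 for Kank2. The genotype difference of Flna minus Flnc ran from -0.05019 to 0.1465, and that of Tns3 minus Tns2 from -0.3393 to -0.1983.

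No paired analysis was possible because the labels give each mouse a number of its own, and replicate numbers here follow record order. The median SE of a genotype log2 fold change over all genes was 0.09.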
